A study of Rattus norvegicus with 90 samples.

Results

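Microglia-enriched cells were compared between rat pups that received mesenchymal stromal cells from human umbilical cord (HuMSCs) into the vein at the middle of 3 doses, 50 M cells/kg, and pups with the same injury that received none. The comparison holds 6 of the 90 libraries of the series, 3 per group, chosen by their titles alone, and it was read across all genes. All pups were male Wistar Han rats. The injured group was injected into the abdomen with recombinant mouse interleukin-1β (IL-1β) at 20 µg/kg, 2 times a day from postnatal day 1 (P1) to P4 and 1 time on P5, and was given PBS in place of cells. The HuMSC50 group had the same IL-1β schedule and then HuMSCs in PBS by the intravenous route on P10. The HuMSC20 and HuMSC125 groups differed from it only in the dose, 20 and 125 M cells/kg, and the uninjured control group was given PBS in place of IL-1β and of cells. Brains were taken at P12, 48 h after the cells, without olfactory bulbs and cerebellum, and cells were enriched with beads against CD11b/c after an enzymatic dissociation. Each group has 3 libraries, and all 15 libraries of the intravenous P12 experiment were sequenced in 1 run. The labels do not say whether replicates came from separate animals or litters, so each p-value reflects only how much these samples vary, which may be technical variation.

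Microglia are the resident macrophages of the brain. They take up debris and synapses, feed on trophic signals such as those of the CSF1 receptor, and answer systemic inflammation with cytokine, chemokine and purinergic receptor genes. Mesenchymal stromal cells are given in models of perinatal brain injury because they release factors that act on immune cells. Repeated systemic IL-1β in newborn rodents is used as a model of the inflammation-associated brain injury of preterm infants.

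The 15 libraries held 13.3 to 42.4 M counted reads, with a median of 18.9 M. Of these, injured replicate 3 was the deepest and control replicate 3 the shallowest. The microglial genes Csf1r (8230 to 9800 CPM, read counts scaled to 1 M per library) and P2ry12 (1960 to 2700 CPM) were high in all 15 libraries (these CPM are relative to each library total, before scaling between libraries). Markers of other cells were present at lower levels, with Mbp of myelinating oligodendrocytes at 117 to 211 CPM, Cldn5 of endothelium at 90.4 to 265 CPM and the astrocyte gene Gfap at 18 to 64.2 CPM, while the T cell gene Cd3e was at 0 to 0.541 CPM. Control replicates 2 and 3 stood apart from the rest, with a median correlation of log2 CPM with the other libraries of 0.981 and 0.98, against 0.985 to 0.989 for the other 13. Control replicate 3 also had the lowest summed level of endothelial markers of the 15 libraries. The enriched fraction is bulk RNA, in which fewer cells of a type and less RNA per cell cannot be told apart.

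Against the injured group, 5 of 13874 genes passed the threshold in the HuMSC50 group, 0.036% of those tested. Lower were Mlc1, P2rx4 and the unnamed genes AABR07044421.1 and AC134224.3, and higher was Ctdspl2. The test was edgeR's quasi-likelihood F test on counts, fitted over the 15 libraries, with a Benjamini-Hochberg adjusted p under 0.05. An unadjusted p under 0.05 was reached by 650 higher genes (4.69%) and 967 lower genes (6.97%), and the median change over all genes was -0.02 on the log2 scale. In 1362 genes (9.82%) all 3 HuMSC50 libraries lay above all 3 injured ones, and in 1606 genes (11.6%) they lay below. DESeq2 called 57 genes, 18 higher and 39 lower, and all 5 were among them. Without HuMSC50 replicate 3, no gene passed in edgeR (907 had an unadjusted p under 0.05): the 5 genes kept changes of -3.19 (AABR07044421.1), -2.14 (AC134224.3), -0.81 (Mlc1), -0.71 (P2rx4) and 0.90 (Ctdspl2), with adjusted p-values from 0.0706 to 0.147.

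**Figure D1:**
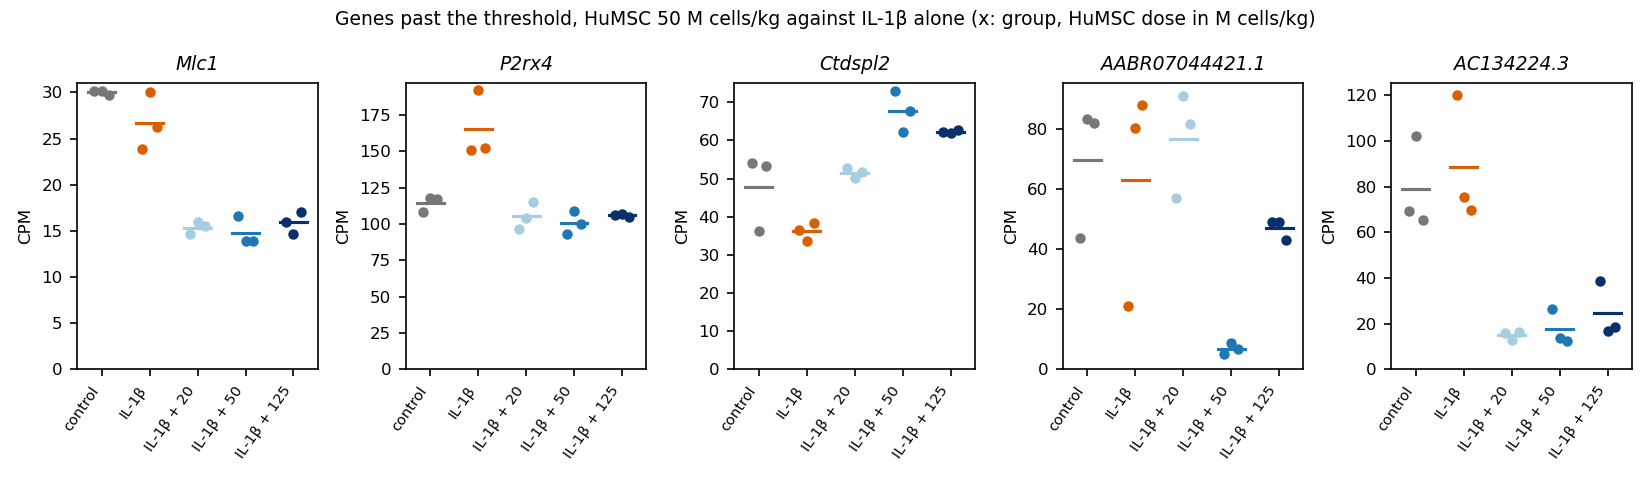
Read counts per 1 M (CPM, linear axis from 0) of the 5 genes past the threshold between HuMSC50 and injured libraries. Points are libraries, bars are group means, n = 3 per group. For each gene the 3 libraries given 50 M cells/kg lie outside the range of the 3 IL-1β libraries, and for Mlc1, P2rx4 and AC134224.3 the libraries of the other doses lie near those given 50 M cells/kg.

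Mlc1 encodes a membrane protein of astrocyte end-feet that is mutated in megalencephalic leukoencephalopathy with subcortical cysts. Its level was 23.9, 30 and 26.2 CPM in the injured libraries and 16.6, 13.9 and 13.9 CPM in the HuMSC50 libraries. The groups did not overlap, and Mlc1 fell by 0.85 on the log2 scale (SE 0.10, adjusted p = 0.00607). Control libraries held 29.7 to 30.2 CPM, so the HuMSC50 group was also below them (log2 change -1.02, SE 0.11, adjusted p = 0.000826). At the other doses Mlc1 was at 14.6 to 15.9 CPM (20 M cells/kg) and 14.7 to 17 CPM (125 M cells/kg), each lower than the same injured libraries in its own comparison (adjusted p = 0.0096 and 0.0258). The 50 M dose differed from the mean of the other 2 by -0.08 (SE 0.09, adjusted p = 0.745).

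P2rx4 encodes an ATP-gated cation channel known for its induction in reactive microglia. The injured libraries held 151, 192 and 152 CPM and the HuMSC50 libraries 93.1, 109 and 99.8 CPM. No library of one group reached the other, and P2rx4 fell by 0.71 (SE 0.10, adjusted p = 0.00607). The control libraries, at 108, 118 and 117 CPM, lay between the 2 groups or within the HuMSC50 range, and HuMSC50 minus control was -0.19 (SE 0.10, adjusted p = 0.246). The injured group itself was 0.52 above control (adjusted p = 0.0951). Libraries of the 20 and 125 M doses held 96.8 to 115 and 105 to 107 CPM. Those doses share the injured libraries with the 50 M comparison, and their own changes were -0.64 (adjusted p = 0.0262) and -0.63 (adjusted p = 0.0258).

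Ctdspl2, a phosphatase-like protein related to enzymes that act on the tail of RNA polymerase II, was the gene that rose. It was at 36.4, 33.7 and 38.3 CPM in injured and at 73.1, 62.2 and 67.6 CPM in HuMSC50 libraries, without overlap. The change was 0.90 (SE 0.12, adjusted p = 0.00607), a 1.87-fold rise. Control libraries were spread over 36.2 to 54.1 CPM, and HuMSC50 exceeded them by 0.50 (SE 0.12, adjusted p = 0.04). Levels at 20 M cells/kg were 50.2 to 52.8 CPM and at 125 M cells/kg 62 to 62.7 CPM, with changes against injured of 0.51 (adjusted p = 0.472) and 0.78 (adjusted p = 0.0258).

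The other 2 genes carry clone-based names and no stated function. AABR07044421.1 lies on chromosome 20 between 5351611 and 5354095 in the deposited coordinates, with no build stated in the labels, and inside the span of RT1-A1, a class I gene of the rat major histocompatibility complex (MHC). It was at 21.1, 80.3 and 88 CPM in injured and 5.2, 8.74 and 6.77 CPM in HuMSC50 libraries, a change of -3.21 (SE 0.43, adjusted p = 0.00607). Reads shared with RT1-A1 or other class I copies could be split or dropped by the counting, so its level is uncertain. RT1-A1 itself was at 186, 179 and 183 CPM in injured and 262, 219 and 171 CPM in HuMSC50 libraries (0.25, SE 0.35, adjusted p = 0.782). AABR07044421.1 was the 1 gene called between HuMSC50 and the mean of the other doses (0.00721% of 13874 tested), at -3.13 (SE 0.40, adjusted p = 0.0151). Its libraries held 57.2 to 91.1 CPM at 20 M and 43.1 to 49.2 CPM at 125 M cells/kg. That count of 1 was 0 without HuMSC50 replicate 2 or replicate 3, 59 without HuMSC50 replicate 1, 87 without control replicate 3 and 341 with DESeq2. AC134224.3, on chromosome 1, fell from 120, 75.4 and 69.9 CPM to 26.2, 13.9 and 12.4 CPM, by 2.34 (SE 0.33, adjusted p = 0.0107). It was at 12.9 to 16.2 CPM with 20 M and at 16.6 to 38.8 CPM with 125 M cells/kg, and at 65.4 to 102 CPM in control libraries. Without HuMSC50 replicate 2 its adjusted p was 0.143.

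The next 5 genes by p-value did not pass and include genes that step between libraries. AABR07053166.1 was at 0.506, 0.112 and 0 CPM in injured and 12.1, 27.5 and 28.6 CPM in HuMSC50 libraries (adjusted p = 0.0688). RGD1359290 was likewise low in injured and high in HuMSC50 libraries, at 1.41, 0.506 and 0.209 CPM against 10.8, 24.7 and 22 CPM (adjusted p = 0.106). Both were also above 10 CPM in control replicates 1 and 3 and in HuMSC125 replicates 1 and 2, and at most 1.66 CPM in every other library outside the HuMSC50 group, so the high libraries cross the treatment groups. Lrrn4cl was at 0.675, 0.675 and 0.441 CPM against 5.37, 3.77 and 4.12 CPM (adjusted p = 0.106), and HuMSC125 replicate 1, at 4.79 CPM, was as high. Ackr4, an atypical receptor that scavenges CCL19 and CCL21, was at 2.36, 2.81 and 4.67 CPM against 0.813, 0.719 and 0.938 CPM (log2 change -2.01, SE 0.40, adjusted p = 0.13). RT1-CE1, a class I gene next to Ackr4 in p-value, was at 31.3, 68.5 and 83.7 CPM against 19.5, 18.6 and 18.3 CPM (log2 change -1.71, SE 0.33, adjusted p = 0.13).

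More genes of the same stretch of chromosome 20 had this shape, and others did not, such as RT1-CE4 (log2 change 0.21, SE 0.29) and RT1-CE3 (0.25, SE 0.44). From the first to the last RT1 gene of the table (154074 to 5421098 in the deposited coordinates), 134 genes were tested, of which 4 were higher and 22 lower than injured at an unadjusted p under 0.05, 19.4% against 11.7% of all genes. Against control, 3 were called higher and 14 lower, 12.7% against 2.77% of all genes. The stretch was singled out after values had been seen, and its genes overlap or resemble each other: the span of RT1-CE1 alone covers Hspa1b, Tnf, RT1-CE3, RT1-CE4, RT1-CE5 and RT1-CE7. RT1-A2, a classical class I gene, was at 572, 578 and 703 CPM in control, 317, 527 and 609 CPM in injured and 310, 229 and 181 CPM in HuMSC50 libraries, so that replicate 1 of the injured group lay next to the HuMSC50 range. RT1-A2 fell against control by 1.36 (SE 0.29, adjusted p = 0.0292), with -1.01 against injured (SE 0.29, adjusted p = 0.307). RT1-DOb, a class II gene of B cells and antigen loading, was at 1.41 CPM in HuMSC50 replicate 1 and at 21.6 and 22.2 CPM in replicates 2 and 3, against 0.974 to 3.14 CPM in the other 12 libraries. Psmb8, a subunit of the immunoproteasome encoded in the same stretch, was at 24.2, 28.9 and 31.1 CPM in injured and 20.3, 18.3 and 15.5 CPM in HuMSC50 libraries and fell against control (log2 change -0.65, SE 0.16, adjusted p = 0.044). Outside the stretch, Cpt2, which imports long-chain fatty acids into mitochondria, had a similar step: it was at 24.1, 25.1 and 24.3 CPM in injured and at 12, 12.5 and 12.2 CPM in HuMSC50 libraries (adjusted p = 0.162), while control replicate 1 was at 13 CPM.

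**Figure D2:**
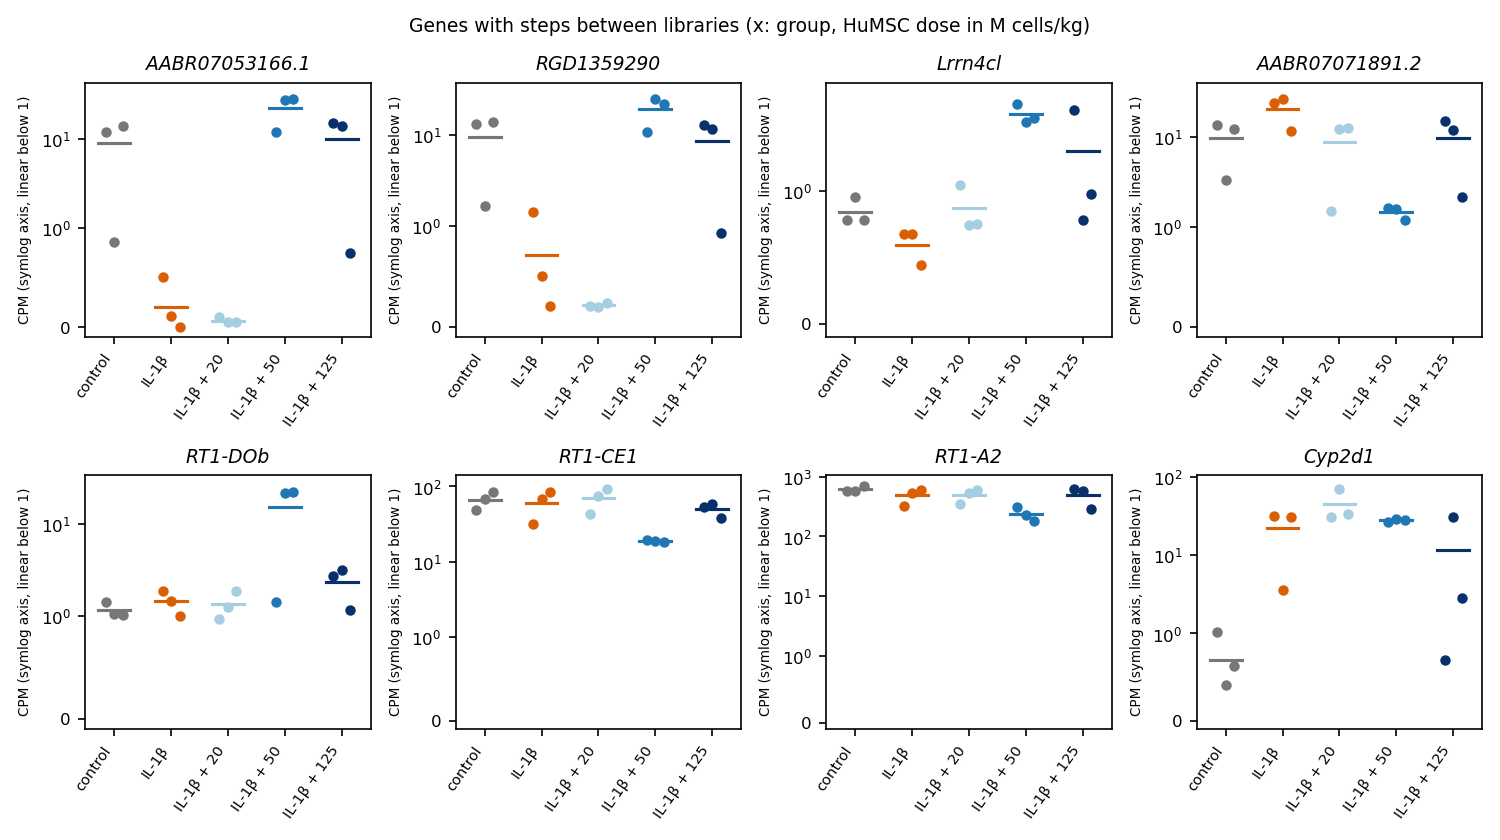
CPM by library (symlog axis, linear below 1 CPM) of 8 genes whose levels step between libraries. Points are libraries and bars group means, n = 3 per group. AABR07053166.1 and RGD1359290 are high in the 3 libraries given 50 M cells/kg and in control replicates 1 and 3, RT1-DOb is high in 2 of the 3 libraries given 50 M cells/kg, and Cyp2d1 varies from 0.691 to 31 CPM within the 125 M group.

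Gene lists for microglial states, stress, metabolism and cell types gave 2 called members against injured, among 836 genes tested, where 0.036% of all genes were called. These were Mlc1 of the astrocyte list and P2rx4 of the chemokine and purine receptor list. Of the 48 lists, those of nuclear retained RNAs and replication-dependent histones had 0 genes tested. DESeq2 called 13 list members, and 57 of all 13874 genes. The markers that define resting microglia stayed close between the groups. P2ry12, the ADP receptor that guides microglial processes, was at 2390, 2130 and 2240 CPM in injured and 2670, 2200 and 2310 CPM in HuMSC50 libraries (log2 change 0.09, SE 0.11). Cx3cr1, the fractalkine receptor, was at 1750, 1910 and 1790 against 1730, 1830 and 1800 CPM (-0.03, SE 0.09), and Tmem119, a microglial surface marker, at 589, 739 and 666 against 653, 735 and 676 CPM (0.05, SE 0.29). Over the 27 genes tested of the homeostatic list the median change was -0.02, and none was called by edgeR or DESeq2. At an unadjusted p under 0.05, 4 were higher and 2 lower, against 4.69% and 6.97% of all genes. Mrc1, the mannose receptor of border macrophages (0.01, SE 0.12), the prostaglandin synthase gene Ptgs2 (-0.06, SE 0.25), the growth factor Igf1 (-0.06, SE 0.17) and the proliferation marker Mki67 (0.11, SE 0.10) also had changes smaller than their SE or close to it. Arg1 was too low to be tested.

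**Figure D3:**
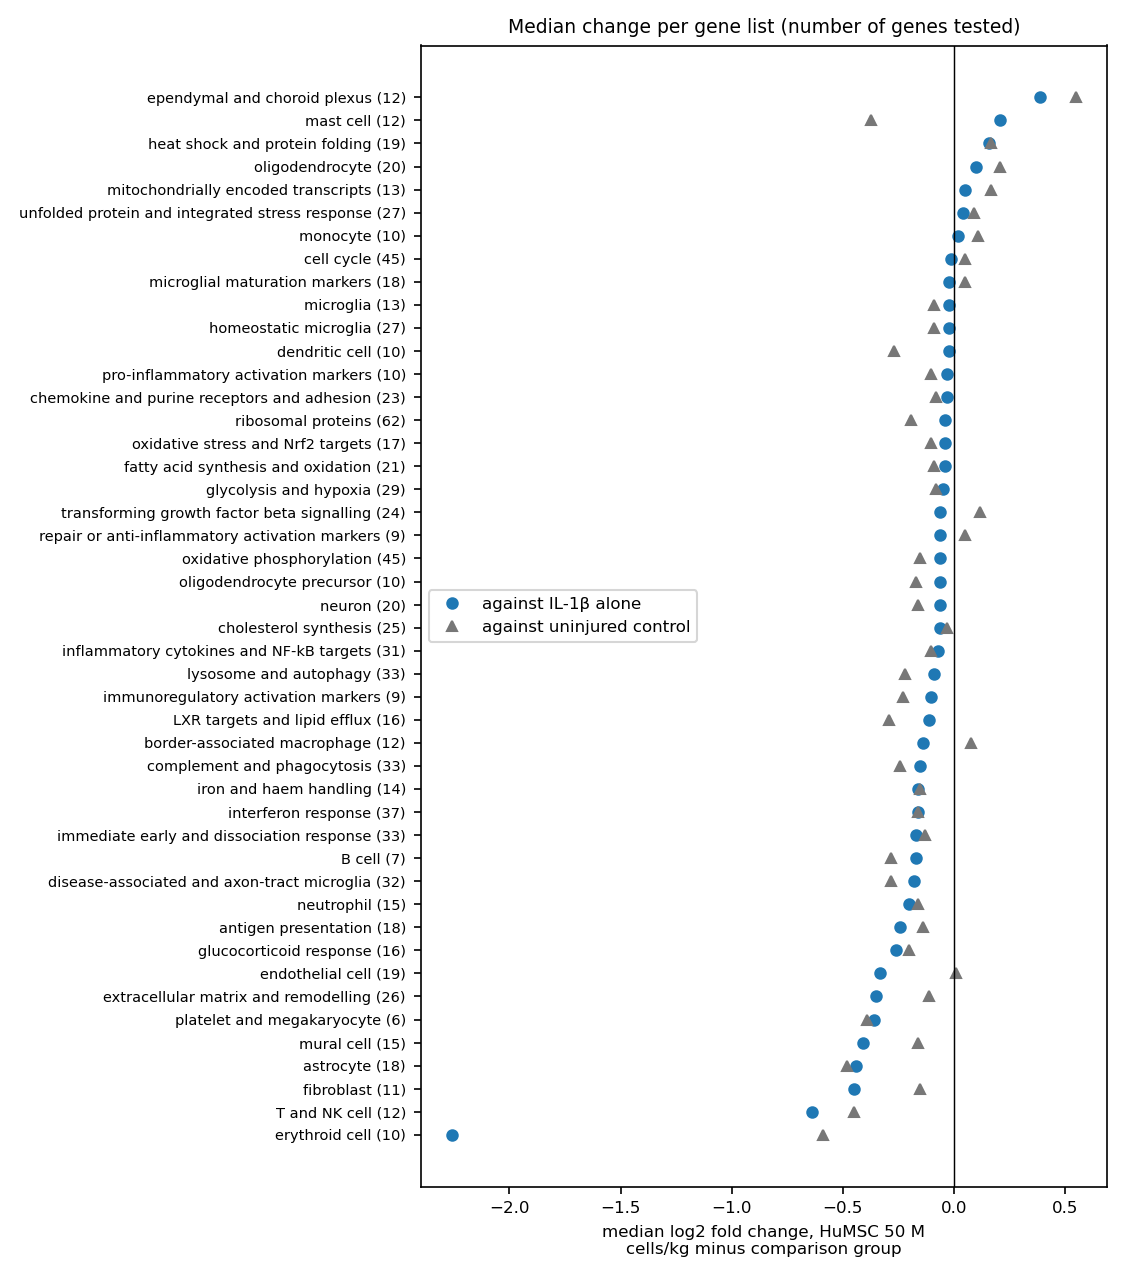
Median log2 fold change of the tested genes of each list, HuMSC50 minus injured (circles) and HuMSC50 minus control (triangles), with the number of genes in parentheses. Most medians lie between -0.3 and 0.3; the erythroid list lies lowest against injured (-2.26) and the ependymal and choroid plexus list highest (0.39).

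Inflammatory genes gave no call by edgeR in the list of 31 cytokines and NF-κB targets, with a median of -0.07. At an unadjusted p under 0.05, 1 was higher and 4 were lower, against 4.69% and 6.97% of all genes. DESeq2 called 1 of them lower, and 39 of all 13874 genes. Il1b, the cytokine that was injected as protein in the first days of life, was at 154, 244 and 147 CPM in injured and 294, 193 and 204 CPM in HuMSC50 libraries, and the groups overlapped (log2 change 0.34, SE 0.27, adjusted p = 0.602). Il1rn, the secreted antagonist of the IL-1 receptor, was at 8.95, 11.3 and 9.57 CPM against 16.5, 15.1 and 17 CPM. These did not overlap, but the change of 0.71 (SE 0.21) did not pass against injured (adjusted p = 0.316), while Il1rn rose against control, at 8.98, 7.42 and 9.26 CPM, by 0.93 (SE 0.22, adjusted p = 0.04). Csf1, the growth factor of microglia and macrophages, was at 45.3, 42 and 55.6 against 27.2, 28.2 and 26.9 CPM (log2 change -0.80, SE 0.17, adjusted p = 0.141, and 0.00656 with DESeq2). Spp1, osteopontin, had a uniform level in the HuMSC50 libraries (95.4, 95.4 and 90.1 CPM) and a wide one in the injured libraries (215, 96.2 and 426 CPM), with a change of -1.40 (SE 0.44, adjusted p = 0.339). Socs3, the feedback inhibitor of cytokine receptors, was at -0.57 (SE 0.18, adjusted p = 0.34), and Lgals3, galectin-3, at -0.19 (SE 0.13, adjusted p = 0.556). Tnf had 0 counts in all 15 libraries, and because its row lies within the spans of other genes in the deposited coordinates, that 0 does not show that it was not expressed. Nos2 was not analysed here.

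Genes of disease-associated and axon-tract microglia, a state of phagocytic and lipid-handling cells, had a median of -0.18 over 32 genes, with 1 higher and 11 lower at an unadjusted p under 0.05, against 4.69% and 6.97% of all genes. None passed in edgeR, and DESeq2 called 1 lower, as it did 39 of all 13874 genes. The complement and phagocytosis list had a median of -0.15 (33 genes, 3 higher and 6 lower unadjusted, none called by either tool), and the lysosome and autophagy list a median of -0.09 (33 genes, 0 higher and 8 lower unadjusted, none called by either tool). Grn, the lysosomal growth factor progranulin, was at 1810, 1780 and 1830 CPM in injured and 1420, 1570 and 1500 CPM in HuMSC50 libraries (log2 change -0.27, SE 0.08, adjusted p = 0.309). The interferon list (37 genes) had a median of -0.16 and the immediate early and dissociation response list (33 genes) a median of -0.17, neither with an edgeR call. At an unadjusted p under 0.05 the first had 0 higher and 4 lower and the second 2 higher and 8 lower members, and DESeq2 called 1 and 0. The lists of 45 cell cycle, 62 ribosomal protein and 45 oxidative phosphorylation genes had medians of -0.01, -0.04 and -0.06, near the median of all genes, with no call by either tool. At an unadjusted p under 0.05, 0, 1 and 0 of their members were higher and 3, 6 and 6 lower. Of the oxidative phosphorylation genes, 35 had a negative and 10 a positive change.

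Among the cell type marker lists, the astrocyte list had the most members lower at an unadjusted p under 0.05. Of 18 genes tested, 1 was called (0.036% of all genes) and 10 were lower at that level (6.97% of all genes), with none higher, and the median was -0.44. Gfap, the intermediate filament of astrocytes, was at 48.4, 62.8 and 54.7 CPM in injured and 30.5, 21.5 and 17.8 CPM in HuMSC50 libraries (log2 change -1.25, SE 0.28, adjusted p = 0.162). Aqp4, the water channel of end-feet, was at 70.6, 83.7 and 91.7 against 58.8, 39.2 and 45.1 CPM (-0.78, SE 0.21, adjusted p = 0.283), and S100b, a calcium-binding protein, at 24.9, 30.5 and 26.1 against 20.6, 15.5 and 16.6 CPM (-0.63, SE 0.12, adjusted p = 0.13). The groups did not overlap for any of these 3 genes. The most abundant members of the list did not follow: Slc1a3, a glutamate transporter, was at 807, 538 and 501 against 556, 695 and 731 CPM (0.10, SE 0.26), and Acsbg1, a fatty acid-activating enzyme, at 0.13 (SE 0.07). The summed level of the 18 genes therefore overlapped, at 1540 to 1716 CPM in injured and 1452 to 1676 CPM in HuMSC50 libraries. The list's median was -0.41 at 20 M and -0.60 at 125 M cells/kg, in comparisons that share the injured libraries.

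Markers of vessel and blood cells also differed between the libraries. Of 19 endothelial genes, 14 lay below all injured libraries in all 3 HuMSC50 libraries (11.6% of all genes did) and 4 were lower at an unadjusted p under 0.05 (6.97% of all genes). The median was -0.33 and none was called by either tool. Their summed level was 2246 to 2763 CPM in injured, 1815 to 2040 CPM in HuMSC50 and 1497 to 2461 CPM in control libraries. Median changes were -0.41 for 15 mural and -0.45 for 11 fibroblast markers, each with 2 lower at an unadjusted p under 0.05 and no call by either tool. Haemoglobin was highest in injured replicate 3: Hbb was at 79.6, 77.9 and 247 CPM in injured and 42.5, 11.6 and 10.1 CPM in HuMSC50 libraries (log2 change -2.66), and the 10 erythroid genes had a median of -2.26, with 6 lower unadjusted. None of them was called by edgeR, and DESeq2 called 2 lower, as it did 39 of all 13874 genes. Haemoglobin copies share reads, so single values are uncertain. The other doses, compared with the same injured libraries, also had negative medians. At 20 M and 125 M cells/kg they were -0.22 and -0.61 (endothelial), -0.36 and -0.54 (mural), -0.41 and -0.66 (fibroblast) and -1.15 and -2.84 (erythroid). In that order of lists, HuMSC50 minus the mean of the other doses had medians of 0.08, 0.10, 0.16 and -0.03. Injured minus control had medians of 0.33, 0.27, 0.22 and 1.54. Ependymal and choroid plexus markers, led by Ttr of the choroid plexus, were high in replicate 2 of the control and injured groups (summed level 4238 and 3979 CPM) and in HuMSC50 replicates 2 and 3 (4703 and 4327 CPM). Ttr was at 1950, 4040 and 1780 CPM in control, 1750, 3770 and 2510 CPM in injured and 2020, 4440 and 4070 CPM in HuMSC50 libraries. What part these cells have in the differences above was not tested.

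Heat shock genes were the list with the most members above injured. Of 19 genes tested, 8 were higher and 0 lower at an unadjusted p under 0.05, where 4.69% of all genes were higher. All 3 HuMSC50 libraries lay above all injured libraries for 11 of them, as for 9.82% of all genes, and the median was 0.16. None was called by edgeR and 2, Hspa1b and Dnajb1, by DESeq2, which called 18 of all 13874 genes higher. The list's median was 0.11 at 20 M and 0.08 at 125 M cells/kg, in comparisons that share the injured libraries. Hspa1b, the stress-inducible HSP70, was at 25.8, 11.7 and 22 CPM in injured, 28.9, 75.9 and 70.9 CPM in HuMSC50 and 10.7, 10.9 and 9.81 CPM in control libraries. It rose against control by 2.48 (SE 0.35, adjusted p = 0.00736), with 1.56 against injured (SE 0.33, adjusted p = 0.141). Hspa1b was also above control at the other doses, at 22.5 to 33.6 CPM (20 M cells/kg) and 28.4 to 52.7 CPM (125 M cells/kg). The 50 M dose differed from their mean by 0.83 (SE 0.27, adjusted p = 0.169) for Hspa1b. Dnajb1, its J-domain partner, was at 73.8, 69.5 and 70.1 CPM in injured and 74, 132 and 136 CPM in HuMSC50 libraries and rose against control by 0.65 (SE 0.16, adjusted p = 0.0434). For both genes HuMSC50 replicates 2 and 3 were high and replicate 1 was close to the injured libraries. Those replicates also had high Ttr and RT1-DOb. Control and injured replicate 2 had high Ttr too and held 10.9 and 11.7 CPM of Hspa1b. Whether these levels are linked was not tested. Hspa8, the constitutive HSC70, and Hsph1, an exchange factor of HSP70, rose against control by 0.49 (SE 0.10, adjusted p = 0.0267) and 0.46 (SE 0.10, adjusted p = 0.0282). Without HuMSC50 replicate 3, none of Hspa1b, Dnajb1, Hspa8 and Hsph1 kept its call against control (edgeR adjusted p from 0.0617 to 0.198). Of 12 alternative fits, Dnajb1 passed in 6, Hspa8 and Hsph1 in 9 and Hspa1b in 11. The 3 small nucleolar RNA genes inside Hspa8 rose against control too, by 1.79, 1.34 and 1.16 (adjusted p = 0.00812, 0.0181 and 0.0078), and their reads could come from Hspa8 itself.

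The promoters of 3 of these genes are shown because the genes rose together against control and heat shock factors bind repeats of GAA and its complement TTC. Each is the 250 bases before the start of the gene in the RefSeq annotation of GRCr8, 5′ to 3′ on the strand of the gene, with the matches to GAANNTTC or TTCNNGAA in capitals (each motif reads the same on both strands, and neighbouring matches share 3 bases). They lie at chr8:50080264-50080513 on the plus strand (Hspa8), chr12:10427118-10427367 on the plus strand (Hsph1) and chr19:41431142-41431391 on the minus strand (Dnajb1).
Hspa8: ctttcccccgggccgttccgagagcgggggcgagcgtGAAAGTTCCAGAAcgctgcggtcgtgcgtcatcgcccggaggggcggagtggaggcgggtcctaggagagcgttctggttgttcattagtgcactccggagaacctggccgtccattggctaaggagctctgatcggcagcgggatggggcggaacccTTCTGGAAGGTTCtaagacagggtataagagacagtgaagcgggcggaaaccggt
Hsph1: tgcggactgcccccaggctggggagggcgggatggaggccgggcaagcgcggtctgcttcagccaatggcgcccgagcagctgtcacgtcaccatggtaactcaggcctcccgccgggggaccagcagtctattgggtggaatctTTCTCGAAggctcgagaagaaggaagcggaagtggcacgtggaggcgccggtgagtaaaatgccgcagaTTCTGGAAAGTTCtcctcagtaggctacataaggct
Dnajb1: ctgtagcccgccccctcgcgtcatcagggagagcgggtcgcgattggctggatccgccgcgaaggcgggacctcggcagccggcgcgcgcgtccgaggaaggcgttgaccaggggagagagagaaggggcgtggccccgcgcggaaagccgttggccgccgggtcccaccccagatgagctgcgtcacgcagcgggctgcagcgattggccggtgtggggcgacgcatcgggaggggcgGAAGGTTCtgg

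Hspa8 held 4 matches, Hsph1 3 and Dnajb1 1. Of the 15 heat shock genes with an entry of full length, 9 held at least 1 match, and 13.5% of all 33465 promoters of that length did. Hspd1 and Hspe1, both among the 9, start back to back and their promoters overlap. Their matches are the same bases read on opposite strands, so these sites were counted for both genes. A match is a description of the letters and not a measured binding site, and whether matches go with the changes in level was not tested. Hspa1b had no entry to compare, and Hspa1a, of the same list, held no match.

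Against uninjured control, 151 genes were higher (1.09%) and 234 lower (1.69%) in the HuMSC50 group, a comparison in which IL-1β and the cells differ together. The injured group differed from the same controls in 2 genes by the same test. The count depended on single libraries: leaving out HuMSC50 replicate 3 gave 2 calls and HuMSC50 replicate 1 gave 80. Leaving out a control library gave 1145 (replicate 1), 27 (replicate 2) or 360 (replicate 3). The median genomic span was 45.6 kb for the higher and 10.9 kb for the lower genes, against 20.9 kb for all genes tested. Against injured the medians were 43.5 kb for the higher and 12.1 kb for the lower genes at an unadjusted p under 0.05, and the part of gene length in either comparison was not tested. Genes of the unfolded protein response changed by small amounts: 5 of 27 rose and 1, Phgdh, fell. Hspa5, the endoplasmic reticulum chaperone BiP, was at 989, 912 and 919 CPM in control and 1170, 1260 and 1260 CPM in HuMSC50 libraries (0.39, SE 0.07, adjusted p = 0.0249), and Hsp90b1, Hyou1, Ero1b and Pdia4 rose by 0.41, 0.43, 0.66 and 0.34. Hspa5 was at 1040 to 1110 CPM in the injured libraries, above control and below HuMSC50.

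**Figure D4:**
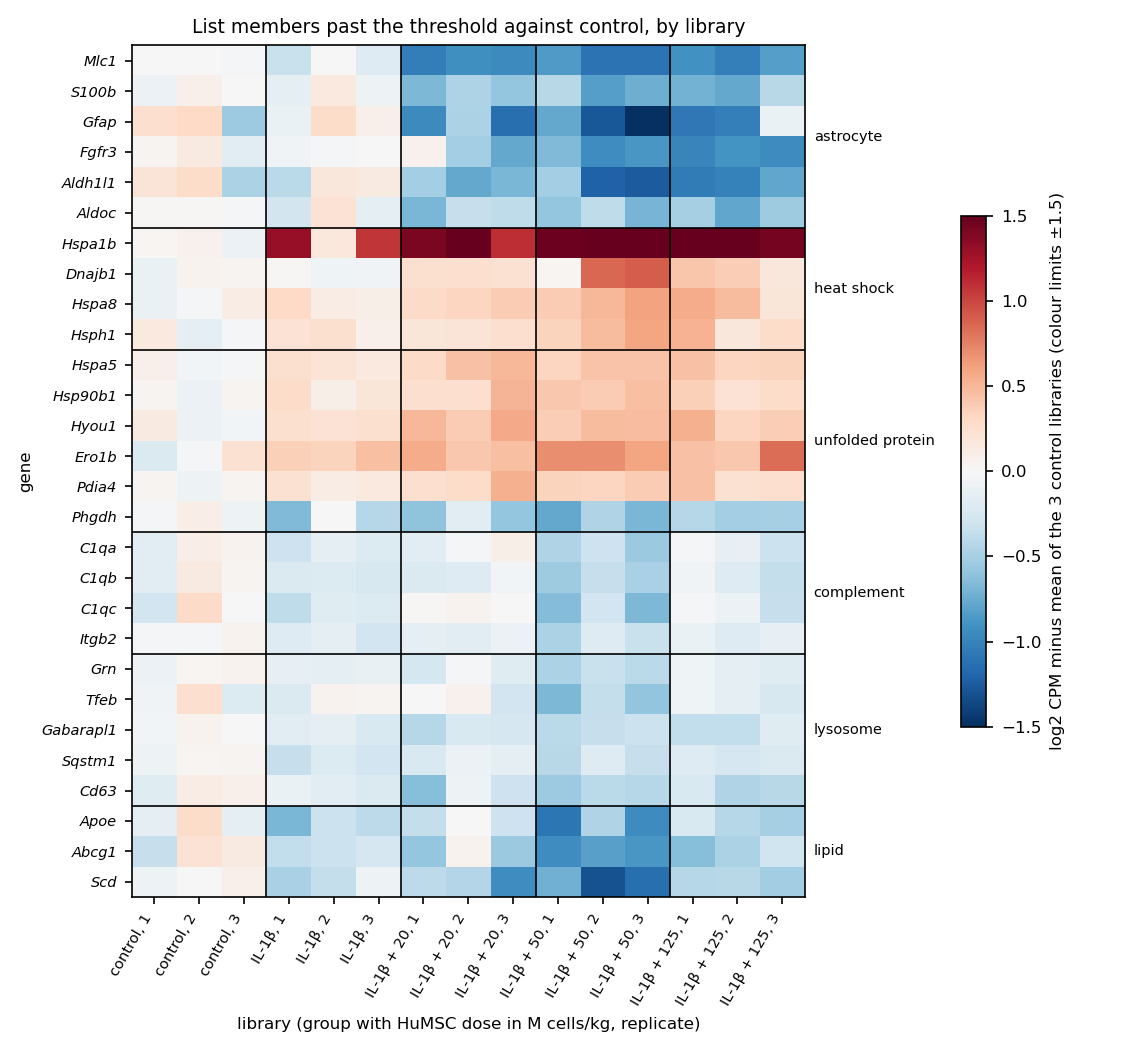
Log2 CPM of each of 28 list members in each library minus the mean of the 3 control libraries (colours limited at ±1.5; rows grouped by list, columns by group and replicate). The genes shown passed the threshold between HuMSC50 and control. Mlc1 is low in all 9 HuMSC libraries, and Dnajb1 is highest in replicates 2 and 3 given 50 M cells/kg.

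Some complement, lysosome and lipid genes fell against control, where 1.69% of all genes were called lower. In the complement list 4 of 33 fell and none rose: C1qa, C1qb and C1qc, the subunits of the initiator of the classical pathway, by 0.45, 0.46 and 0.55, and the integrin subunit gene Itgb2 by 0.33. C1qb was at 2500, 3100 and 2900 CPM in control, 2420, 2450 and 2380 CPM in injured and 1950, 2220 and 2020 CPM in HuMSC50 libraries (SE 0.10, adjusted p = 0.0282). In the lysosome list 5 of 33 fell and none rose: Grn, Tfeb (the transcription factor of lysosomal genes), Gabarapl1, Sqstm1 and Cd63, by 0.32 to 0.55. In the lipid efflux list 3 of 16 fell: Apoe, the lipoprotein of brain lipid transport, the sterol exporter Abcg1 and the desaturase Scd. Apoe was at 4420, 5870 and 4420 CPM in control, 3020, 3880 and 3690 CPM in injured and 2300, 3550 and 2530 CPM in HuMSC50 libraries (log2 change -0.81, SE 0.16, adjusted p = 0.0267). The injured libraries lay between the other 2 groups on average for C1qb and Apoe. Abcg1 was at 270, 400 and 378 CPM in control and 181, 196 and 188 CPM in HuMSC50 libraries (-0.89, SE 0.16, adjusted p = 0.0197). The chemokine gene Ccl3 was at 823, 856 and 656 CPM in control, 706, 762 and 652 CPM in injured and 597, 485 and 468 CPM in HuMSC50 libraries and fell against control by 0.59 (SE 0.12, adjusted p = 0.0274). Astrocyte genes fell in 6 of 18: Mlc1, S100b, Gfap, Fgfr3, Aldh1l1 and Aldoc, by 0.55 to 1.21. Without HuMSC50 replicate 3, Mlc1 (adjusted p = 0.0149) kept its call, and the other genes of this paragraph did not.

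Other genes with large changes against control were Cyp2d1, Sema3d, Cdh1 and Gdf15. Cyp2d1, a hepatic drug-metabolising enzyme, was at 0.404 to 1.04 CPM in control and 26.3 to 28.9 CPM in HuMSC50 libraries (5.30, SE 1.21, adjusted p = 0.0374), and at 31.7, 3.54 and 30.8 CPM in injured ones, so the injured libraries held both states. Sema3d, a secreted guidance cue, and Cdh1, E-cadherin, both rose by 1.29 (adjusted p = 0.0402 and 0.04). The injured libraries reached into the HuMSC50 range for both, with Cdh1 at 3.15 to 4.64 CPM against 4.34 to 6.71 CPM and Sema3d at 1.86 to 3.39 CPM against 3.39 to 4.07 CPM. Gdf15, a stress-responsive cytokine, fell from 7.2, 10.9 and 4.94 CPM to 1.73, 3.59 and 2.66 CPM (-1.55, SE 0.38, adjusted p = 0.0425), against 6.08, 8.27 and 7.04 CPM in injured libraries.

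The same dose given by the nose at P10 was measured in another run with its own injured libraries. The change against injured differed between routes in 21 of 14362 genes (0.146%), 14 with a more positive and 7 with a more negative change by vein, in a fit over 30 libraries of both runs. Values in this and the next 2 paragraphs are scaled over those 30 libraries. Leaving out HuMSC50 replicate 3 of the intravenous run left 5 of these genes, and leaving out intranasal HuMSC50 replicate 3 left 7.

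Secreted regulators made up part of the 14. Il1rn was at 9.08, 11.4 and 9.87 CPM in injured and 17.5, 15.4 and 17.7 CPM in HuMSC50 libraries by vein, and at 12.7, 9.74 and 10.2 CPM and 3.04, 3.39 and 5.76 CPM by nose. The changes were 0.74 (SE 0.22) and -1.41 (SE 0.24), a difference of 2.15 (SE 0.33, adjusted p = 0.00754) that passed in all 17 alternatives. Lif, leukaemia inhibitory factor, changed by 0.45 (SE 0.29) by vein and by -2.19 (SE 0.31) by nose, a difference of 2.64 (SE 0.42, adjusted p = 0.00754) that also passed in all 17. The injured libraries themselves differed between the runs for Lif, at 2.34 to 3.69 CPM by vein and 7.71 to 13.8 CPM by nose. HuMSC50 libraries held 3.74 to 4.39 CPM of Lif by vein and 1.43 to 3.7 CPM by nose. The monocyte chemokine gene Ccl2 was at 203, 192 and 195 against 299, 203 and 247 CPM by vein and at 142, 146 and 119 against 52.9, 46.8 and 52.3 CPM by nose, a difference of 1.76 (SE 0.34, adjusted p = 0.022). Olr1, a scavenger receptor for oxidised lipoprotein, changed by 0.12 (SE 0.18) and -1.49 (SE 0.19), and Nr4a3, an immediate early nuclear receptor, by 0.91 (SE 0.36) and -2.21 (SE 0.39). Of the 17 alternatives, the difference between routes passed in 9 for Ccl2, in 17 for Olr1 and in 16 for Nr4a3. Nr4a3 was at 1.63 to 2.56 CPM in injured libraries by vein and 4.52 to 8.32 CPM in those by nose. For Lif, Ccl2 and Olr1 the vein comparison gave changes within 2 SE of 0, and the intranasal one falls.

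Astrocyte genes were among the 7 that were lower by vein. Gfap changed by -1.22 (SE 0.28) by vein and 0.88 (SE 0.27) by nose, where it was at 68.7, 36.4 and 63.4 CPM in injured and 116, 78.9 and 115 CPM in HuMSC50 libraries. The difference was -2.10 (SE 0.39, adjusted p = 0.0185). S100b differed by -1.41 (SE 0.24, adjusted p = 0.00969) and Mlc1 by -1.14 (SE 0.22, adjusted p = 0.022). For Mlc1 the intranasal change was 0.32 (SE 0.15), with libraries at 33.7 to 63 CPM in injured and 54.7 to 59.7 CPM in HuMSC50, against 24.2 to 30.3 CPM in the injured libraries of the intravenous run. Fbxo2, an F-box protein of neural cells, differed by -2.40 (SE 0.45, adjusted p = 0.0185). The run and the route cannot be told apart, although each change was taken within its run.

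**Figure D5:**
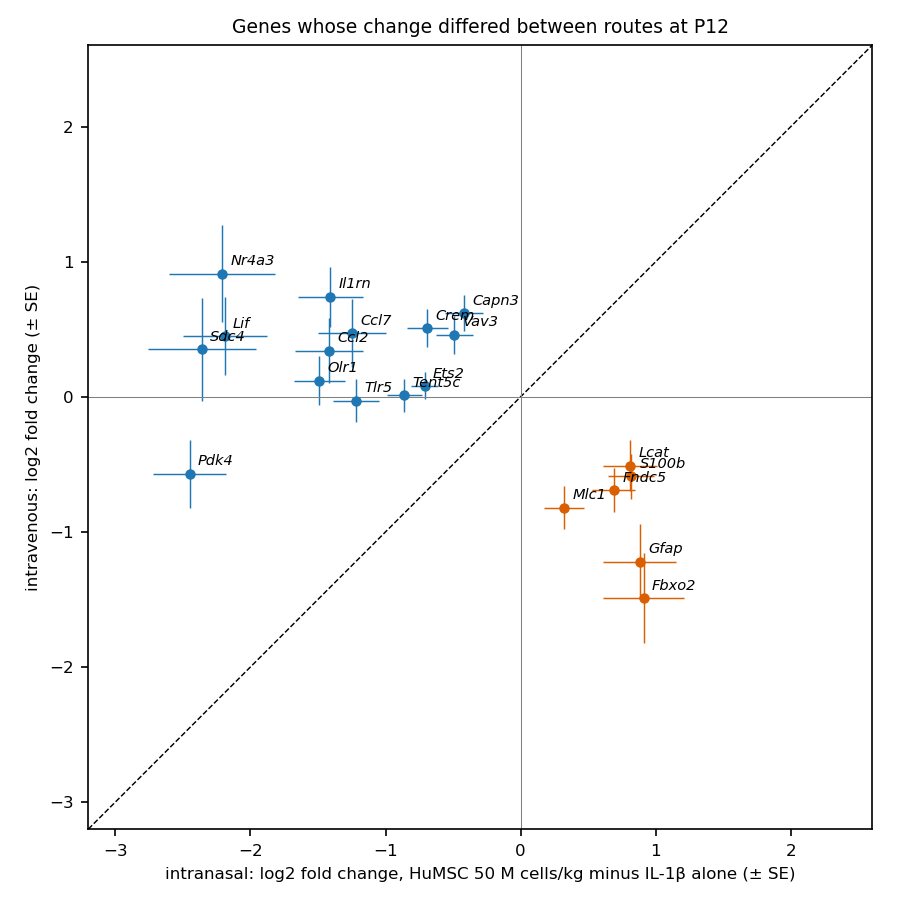
Log2 fold change, HuMSC 50 M cells/kg minus IL-1β alone at P12, by vein (y) and by nose (x) for 20 of the genes whose change differed between routes. Points are estimates and bars ± SE, and the dashed line marks equal changes. The 14 genes above the line include Il1rn (0.74 and -1.41), and the 6 below it include Gfap (-1.22 and 0.88).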

How the data were processed

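The authors deposited a table of raw read counts per gene for 90 libraries and 32623 genes. The submitters' processing notes name HTSeq 0.5.3, DESeq2 1.8.1, STAR 2.7.2d and SAMtools without an order. Per the labels' protocols, polyadenylated RNA was sequenced as stranded single reads. Neither the labels nor those notes state the genome build, the strand setting or how multiply mapped reads were treated. Values of gene copies and of overlapping genes are therefore uncertain.

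Counts of the 15 intravenous P12 libraries (5 groups, residual degrees of freedom 10) were filtered with edgeR 4.0.16 filterByExpr (minimum count 10, minimum total 15), scaled by TMM and tested with the quasi-likelihood F test in R 4.3.3 (limma 3.58.1), with Benjamini-Hochberg adjustment at 0.05. CPM in the text are TMM-scaled unless stated. The route comparison was an interaction in a fit over 30 libraries. DESeq2 1.42.0, other filters and scalings, a replicate block, fits of the compared groups alone and leaving out each library were alternatives. The edgeR step was tested on simulated counts. Members, gene lists (987 genes, 929 matched, 5 by a RefSeq synonym) and tests were chosen with earlier results of these data known. Named genes were those called and the 10 with the smallest p, up to 4 members per list by p (8 where at least 5 were called), 15 activation markers, and the 5 largest rises and falls of the other comparisons. Genes of the chromosome 20 stretch, the small nucleolar RNAs, Cpt2, Aqp4, Slc1a3, Acsbg1 and Ttr were named after their values were seen. One gene that differed between routes is counted but not reported here.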

Additional observations from a re-analysis of the deposited data

Results flagged for a closer look

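The change from injured to HuMSC50 at P12 differed between the intravenous and the intranasal route in 21 genes by the interaction test in edgeR. The difference (intravenous minus intranasal, log2) was 3.13 for Nr4a3, 2.71 for Sdc4, 2.64 for Lif, 2.15 for Il1rn, 1.88 for Pdk4, 1.76 for Ccl2, 1.72 for Ccl7 and 1.61 for Olr1. It was 1.20 for Crem, 1.19 for Tlr5, 1.04 for Capn3, 0.95 for Vav3, 0.87 for Tent5c and 0.79 for Ets2. It was -2.40 for Fbxo2, -2.10 for Gfap, -1.41 for S100b, -1.38 for Fndc5, -1.33 for Lcat and -1.14 for Mlc1. For some of these genes the injured libraries themselves differed between the runs (CPM scaled over the 30 libraries). Sdc4 was at 28.2 to 50.2 CPM in injured libraries by vein and 82.9 to 241 CPM by nose, and Pdk4 at 28.3 to 41.5 and 57.1 to 110 CPM. Each route was sequenced in its own run, so route and run cannot be told apart.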

How the results depend on the processing

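Against injured, the 5 calls became 31 with no filter on low counts, 57 with DESeq2 and 29 with only the groups compared, and ranged from 0 (without HuMSC50 replicate 3) to 12 (without HuMSC50 replicate 1) when single libraries were left out. Against the other doses, the 1 call became 163 with no filter, 341 with DESeq2 and 115 with only the groups compared, and ranged from 0 to 87 over left-out libraries, the 87 being without control replicate 3, chosen after seeing the data. Against control, the 385 calls became 1150 with DESeq2 and 38 with only the groups compared, and ranged from 2 to 1145 over left-out libraries. Between routes, the 21 calls became 55 with no filter and 101 with DESeq2, and ranged from 5 to 41 over left-out libraries. Of the gene lists' 2 calls, there were 12 with no filter, 13 with DESeq2 and 8 with only the groups compared, and 0 to 6 over left-out libraries. The causes were not tested. DESeq2 size factors and a filter of 1 CPM in 3 libraries kept each of these counts within 1.5 times. No gene followed over the alternatives changed sign where the main or the alternative fit passed the threshold. Genes that never passed could change sign, such as Igf1 against injured, which ranged from -0.21 to 0.18. With the replicate block the counts were 8 (injured), 1 (other doses), 807 (control), 23 (routes) and 2 (lists). Same-numbered injured and HuMSC50 libraries had deviations correlated at 0.205, 0.238 and 0.0434, and each injured library correlated best with its own number. Between HuMSC50 and control, HuMSC20 or HuMSC125, only 1 library per pair of groups did so. This is a hint from the data only, so the numbers were not taken to pair samples. Genes under the count minimum could not be tested, and control replicate 3, at 13.3 M reads, limits precision for low genes.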
